A study of Homo sapiens with 6 samples.

Results

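The genes of the NF-kB transcription factor subunits and of their regulators were followed in T24 bladder cancer cells with and without silencing of TRIM28. The 10 genes were taken by symbol from the count table of 78932 genes. No measured value entered the rule, but earlier results of these data were known when the members were chosen. They are the 5 subunit genes NFKB1, NFKB2, RELA, RELB and REL, the inhibitor genes NFKBIA and NFKBIE, the deubiquitinase gene TNFAIP3, the ubiquitin ligase gene BIRC3, and IKBKG, the gene of the regulatory subunit of the IkB kinase. All 10 passed the filter on low counts and are among the 18474 genes tested.

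T24 is an established human urothelial carcinoma cell line, so all replicates come from a single line. The libraries are of poly(A) RNA, 3 from cells transfected with siNC, a negative control siRNA that targets no gene. The other 3 are from cells transfected with siTRIM28, an siRNA against TRIM28, whose protein is a transcriptional co-repressor and SUMO ligase. The sample titles call them replicates and do not say whether each is a separate culture. Both groups went through the same transfection reagent and carry the same batch label. The hours between transfection and harvest, and which TRIM28 siRNA was used, are not given in the sources used here.

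NF-kB proteins bind DNA as dimers of RELA, RELB, REL, p50 (made from NFKB1) and p52 (made from NFKB2), and IkB proteins such as those of NFKBIA and NFKBIE hold them in the cytoplasm. In the canonical branch, receptors for TNF, IL-1 or microbial products activate a kinase complex of CHUK, IKBKB and IKBKG that marks the IkB proteins for degradation. In the noncanonical branch, TRAF3 and the BIRC2 and BIRC3 ligases keep the kinase MAP3K14 low, and loss of that brake lets CHUK drive the processing of the NFKB2 product to p52, which pairs with RELB. Several of these genes are themselves textbook NF-kB targets, among them NFKBIA, TNFAIP3, BIRC3, NFKB1, NFKB2 and RELB, which closes feedback loops.

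The promoters of 6 of the 8 genes with a window in the RefSeq promoter table (GRCh38.p14) hold the NF-kB consensus. Several members are textbook NF-kB targets, so matches in their promoters follow in part from the choice of genes. Each window covers 250 bases before and 50 after an annotated start, and the consensus of 10 bases, which opens with GGG and closes with CC, was searched on both strands. In the stretches printed here, 5′ to 3′ on the strand of the gene, capitals mark the bases of the matches. Matches that overlap were joined into 1 run of capitals.
NFKB1, chr4:102501295-102501334, + strand: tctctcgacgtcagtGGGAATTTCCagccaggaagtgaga
NFKB2, second start, chr10:102394456-102394524, + strand: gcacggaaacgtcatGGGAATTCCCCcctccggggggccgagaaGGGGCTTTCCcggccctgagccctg
REL, chr2:60881512-60881552, + strand: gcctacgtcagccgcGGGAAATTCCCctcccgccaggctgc
NFKBIA, chr14:35404806-35404845, - strand: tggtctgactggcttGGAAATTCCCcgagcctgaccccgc
TNFAIP3, chr6:137867177-137867228, + strand: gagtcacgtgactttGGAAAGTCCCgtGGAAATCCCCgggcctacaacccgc
BIRC3, chr11:102317270-102317373, + strand: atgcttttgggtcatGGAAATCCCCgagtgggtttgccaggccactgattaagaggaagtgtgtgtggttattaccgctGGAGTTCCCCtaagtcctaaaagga
The runs begin 49 bases before the start in NFKB1, 47 in REL and 81 in NFKBIA. They begin 107 and 78 bases before the second start in NFKB2, 67 and 55 in TNFAIP3, and 199 and 135 in BIRC3. The third annotated start of NFKB2 has a further 2 runs in its window. No match lay in the windows of RELA and IKBKG, and RELB and NFKBIE were not matched to the table. Of all 35116 windows of this length, 2075 (5.91%) hold a match, and 7 of the 15 windows of the members do. Counted by gene, 1937 of 27305 (7.09%) have a match in any window, beside the 6 of 8 members. A match is a description of the sequence, and binding was not measured.

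The 6 libraries hold 11712623 to 14018052 counts each. Replicate counts differed by more than sampling noise in every pair, and all 6 were counted as separate. With so many genes a small difference passes that test, so it cannot show that close libraries come from separate cultures. If they do not, fewer independent cultures lie behind the p-values. Within the groups, siNC replicate 3 and siTRIM28 replicate 1 stood apart: the chi-square per degree of freedom was 1.08 between siNC replicates 1 and 2 and 1.24 between siTRIM28 replicates 2 and 3, against 4.54 to 7.09 for the pairs with siNC replicate 3 or siTRIM28 replicate 1. Levels are given as CPM, counts scaled to library size with TMM factors. TRIM28 counts were 1419, 1393 and 1382 in siNC and 130, 96 and 109 in siTRIM28, a log2 fold change of −3.54 (SE 0.07, edgeR quasi-likelihood adjusted p = 1.03e-10). The epithelial keratins KRT8 and KRT18 stood at 103.5 and 86.1 CPM in siNC, while UPK1B, UPK3A, EPCAM, GATA3 and CDH1, other markers of urothelium or epithelium, were at or near 0, and 7 of 16 such markers passed the filter. Of these 7, 4 were called higher in siTRIM28 and none lower: KRT8 (log2 fold change 0.14), KRT7 (0.56), TP63 (1.01) and UPK1A (1.94, from 0.87 to 3.41 CPM). TP63 was near the floor, with 9, 4 and 6 counts in siNC and 11, 15 and 10 in siTRIM28, and only just passed (edgeR adjusted p = 0.04998). The summed level of the 16 markers was 199.6 to 207.9 CPM in siNC and 221.7 to 227.8 CPM in siTRIM28. Of the leukocyte list 1 of 12 genes passed, CD68, at 347.5 CPM in siNC and 351.1 CPM in siTRIM28. It made up nearly all of the list's sum, 346.2 to 350.6 CPM in siNC and 338.2 to 361.6 CPM in siTRIM28. PTPRC, CD3E and NKG7 were at or near 0. Of the fibroblast and endothelial list 2 of 10 passed, COL1A1 and PDGFRA, and CDH5 and KDR were at 0. COL1A1 was called higher in siTRIM28 (log2 fold change 1.78, edgeR adjusted p = 0.000221). It had 17, 12 and 9 counts in siNC and 36, 41 and 45 in siTRIM28. PDGFRA was not called (−0.14, edgeR adjusted p = 0.73). The summed levels of this list were 2.6 to 3.96 CPM in siNC and 4.57 to 6.42 CPM in siTRIM28. The part of these sums in the results was not tested.

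The comparison of siTRIM28 with siNC addresses which genes of the pathway change at the RNA level when TRIM28 is depleted. BIRC3, NFKB2 and IKBKG were higher in siTRIM28, NFKB1 was lower, and the other 6 members did not pass the test. Thus 3 of 10 members were called higher at an adjusted p under 0.05, where 21.3% of all genes tested were, and 1 was called lower, where 20.5% were. In either direction the members' share was 40.0% against 41.8% of all genes, so the 10 genes as a list were called about as often as all genes tested. That background includes genes with fewer counts, where changes are harder to detect. Shares among genes of like counts were not computed, for this list or the others. Only BIRC3 also had an absolute log2 fold change of 0.58 or more, as 17.0% of all genes did. The groups did not overlap in 6 members, against 52.0% of all genes. The same 4 members passed without siNC replicate 3 and without siTRIM28 replicate 1, and NFKBIE passed in addition without the latter. The median log2 fold change of the 10 members was 0.17, beside 0.02 for all genes tested. In bulk RNA, fewer cells with a transcript and less of it per cell cannot be told apart, and the p-values measure the spread between these libraries.

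**Figure D1:**
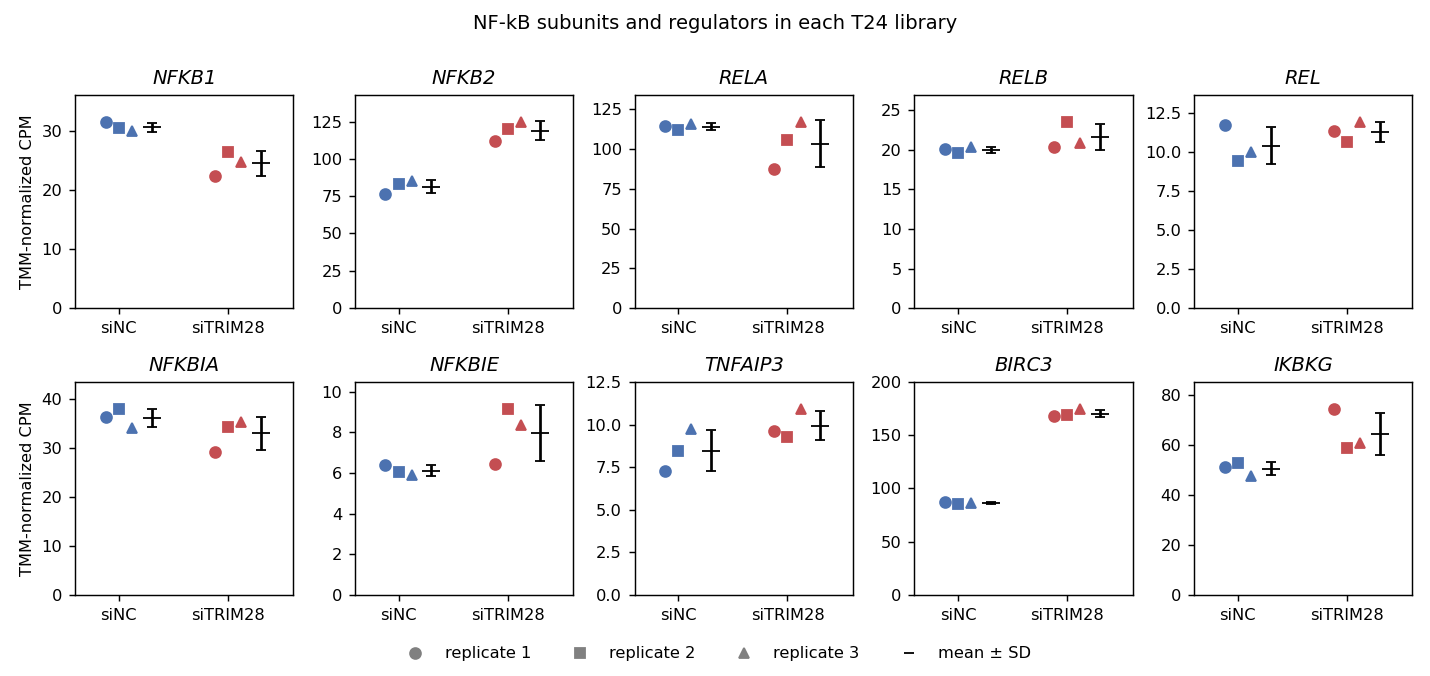
TMM-normalized CPM (y axes from 0) of the 10 genes in each library, by group on the x axis, with the marker shape giving the replicate and the black bars the mean ± SD of 3 libraries. BIRC3 and NFKB2 are higher in all 3 siTRIM28 libraries and NFKB1 is lower in all 3, while RELA, REL, NFKBIA and TNFAIP3 overlap between the groups.

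BIRC3 (ENSG00000023445, chromosome 11 from 102317484 to 102337705, + strand) encodes cIAP2, a RING ubiquitin ligase that acts on RIPK1 and MAP3K14 and restrains cell death after TNF. Its level was 87.8, 85.1 and 86.2 CPM in siNC and 167.6, 169.1 and 174.1 CPM in siTRIM28. Every siTRIM28 library lay above every siNC library, and the libraries of a group differed little, with a coefficient of variation of 1.56% in siNC and 1.99% in siTRIM28. The mean thus went from 86.4 ± 1.34 to 170.2 ± 3.38 CPM (SD, n = 3 each), 1.97-fold, with a log2 fold change of 0.98 (SE 0.04, edgeR adjusted p = 2.06e-08). The value stayed between 0.95 and 0.99 when any 1 library was left out. An RNA on the opposite strand that overlaps BIRC3 (ENSG00000288528) was at 0.69 CPM in siNC and 1.48 CPM in siTRIM28, under 1% of the BIRC3 level.

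BIRC2, the paralog of BIRC3 and the gene of cIAP1, also rose, from 42.7 ± 0.29 to 58.1 ± 1.79 CPM (log2 fold change 0.45, SE 0.06, edgeR adjusted p = 6.06e-05). The log2 ratio of BIRC3 to BIRC2 was 1.05, 0.99 and 1.01 in siNC and 1.55, 1.49 and 1.61 in siTRIM28. All 3 ratios were higher in siTRIM28, and the ratio of the CPM values was 1.45 times as large (log2 difference 0.53, SE 0.04, exact two-sided permutation p = 0.1, adjusted p = 0.125 over 5 pairs). With 3 against 3 libraries 0.1 is the smallest p this test can give, so no pair could pass a threshold of 0.05.

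NFKB2 (ENSG00000077150, chromosome 10 from 102394110 to 102402424, + strand) encodes p100, which acts as an inhibitor until it is processed to p52. It stood at 76.5, 82.8 and 85.0 CPM in siNC and at 112.0, 120.3 and 124.4 CPM in siTRIM28. The groups were far apart relative to their spread, with 81.4 ± 4.44 CPM in siNC and 118.9 ± 6.29 CPM in siTRIM28. NFKB2 thus rose by 46.0% (log2 fold change 0.55, SE 0.06, edgeR adjusted p = 1.58e-05), and no other gene of the table overlaps it.

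NFKB1 (ENSG00000109320, chromosome 4 from 102501330 to 102617299, + strand) encodes p105, the precursor of p50, and was the single member called lower. It was at 31.4, 30.4 and 29.9 CPM in siNC and at 22.3, 26.3 and 24.7 CPM in siTRIM28. The lowest value was that of siTRIM28 replicate 1, and the other siTRIM28 libraries also lay below all siNC libraries. The mean fell from 30.6 ± 0.74 to 24.5 ± 2.05 CPM (log2 fold change −0.33, SE 0.07, edgeR adjusted p = 0.00376), and without siTRIM28 replicate 1 the log2 fold change was −0.26, still past the threshold.

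The paralogs NFKB1 and NFKB2 moved in opposite directions. The log2 ratio of NFKB2 to NFKB1 was 1.28, 1.44 and 1.50 in siNC and 2.32, 2.18 and 2.32 in siTRIM28. The lowest siTRIM28 ratio exceeded the highest siNC ratio, and the mean ratio was 1.83 times as large (log2 difference 0.87, SE 0.08, exact two-sided permutation p = 0.1, adjusted p = 0.125).

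RELA (ENSG00000173039, chromosome 11 from 65653599 to 65662918, - strand) encodes p65, the subunit with the transactivation domain of the canonical dimer. RELA was at 114.2, 112.1 and 116.0 CPM in siNC and at 87.6, 105.5 and 116.7 CPM in siTRIM28. The siNC libraries were close to each other, and the siTRIM28 libraries ranged from well below them to just above them. The log2 fold change of −0.14 (SE 0.08, 95% interval −0.33 to 0.04) did not pass the test (edgeR adjusted p = 0.185), and it was −0.04 without siTRIM28 replicate 1. It was −0.25 without siTRIM28 replicate 3 and −0.16 with no filter on low counts, and each of these did pass (adjusted p = 0.0298 and 0.0409).

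RELB (ENSG00000104856, chromosome 19 from 45001461 to 45037790, + strand), the partner of p52 in the noncanonical branch, was at 20.1, 19.6 and 20.3 CPM in siNC and at 20.4, 23.5 and 20.9 CPM in siTRIM28. The groups did not overlap, but the lowest siTRIM28 value lay just above the highest siNC value. The log2 fold change was 0.11 (SE 0.07, 95% interval −0.05 to 0.27, edgeR adjusted p = 0.255). The log2 ratio of RELB to RELA differed by 0.26 between the groups (SE 0.12, exact two-sided permutation p = 0.1, adjusted p = 0.125), and the siTRIM28 ratios spread from −2.48 to −2.09 while the siNC ratios lay between −2.51 and −2.50.

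REL (ENSG00000162924, chromosome 2 from 60881491 to 60931612, + strand) encodes c-Rel, best known from lymphoid cells. It was the lowest subunit, at 11.7, 9.46 and 10.0 CPM in siNC and 11.3, 10.6 and 11.9 CPM in siTRIM28. The groups overlapped (log2 fold change 0.12, 95% interval −0.11 to 0.34, edgeR adjusted p = 0.395). A gene model on the same strand (ENSG00000267520) shares 5702 bases with the REL locus and was at 4.66 CPM in siNC and 6.20 CPM in siTRIM28. How the counting divided reads between the pair is not given in the sources used here.

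**Figure D2:**
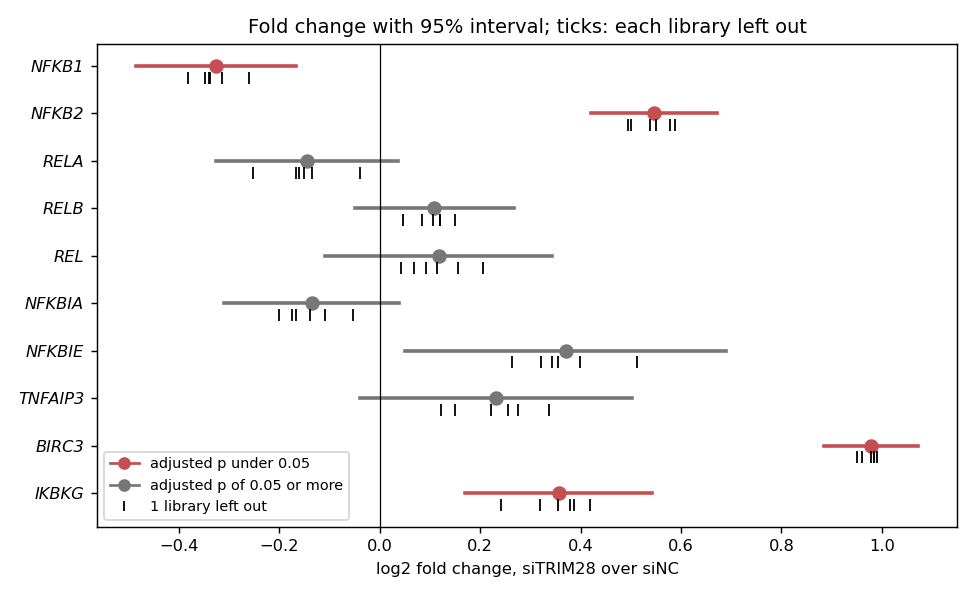
Log2 fold change of each gene in siTRIM28 over siNC (x axis) with its 95% interval, in red where the edgeR adjusted p is under 0.05 and in grey otherwise; short ticks under each line give the value with 1 of the 6 libraries left out. BIRC3 keeps 0.95 to 0.99, while the ticks of NFKBIE spread from 0.26 to 0.51 and those of RELA from −0.25 to −0.04.

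Neither inhibitor gene passed the test. NFKBIA (ENSG00000100906, chromosome 14 from 35401079 to 35404701, - strand) encodes IkB alpha, the fast feedback inhibitor of RELA dimers. NFKBIA was at 36.4, 37.9 and 34.2 CPM in siNC and at 29.3, 34.4 and 35.4 CPM in siTRIM28. The ranges overlapped, with siTRIM28 replicate 1 lowest (log2 fold change −0.14, 95% interval −0.31 to 0.04, edgeR adjusted p = 0.198; −0.05 without that library). The ratio of NFKBIA to RELA differed by 0.02 on the log2 scale (SE 0.07, exact two-sided permutation p = 0.8, adjusted p = 0.8).

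NFKBIE (ENSG00000146232, chromosome 6 from 44258166 to 44265593, - strand) encodes IkB epsilon, an inhibitor that responds more slowly. It had 75 to 108 counts per library, or 6.41, 6.07 and 5.88 CPM in siNC and 6.43, 9.12 and 8.36 CPM in siTRIM28. In siTRIM28 replicate 1 it was at the level of the siNC libraries, and in the other siTRIM28 libraries it was higher. The log2 fold change of 0.37 (SE 0.15, 95% interval 0.05 to 0.69) missed the threshold (edgeR adjusted p = 0.0612). It was 0.51 with an adjusted p of 0.00575 without siTRIM28 replicate 1, and 0.26 at the lowest when another library was left out, so the call depends on that library. The log2 ratio of NFKBIE to NFKBIA was higher in all 3 siTRIM28 libraries by 0.49 (SE 0.09, exact two-sided permutation p = 0.1, adjusted p = 0.125). NFKBIB, the gene of IkB beta, was at 17.5 ± 1.46 CPM in siNC and 18.8 ± 2.73 CPM in siTRIM28 (edgeR adjusted p = 0.431).

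TNFAIP3 (ENSG00000118503, chromosome 6 from 137867214 to 137883314, + strand) encodes A20, a ubiquitin-editing enzyme that ends signalling from TNF and Toll-like receptors. It had 101 to 135 counts per library, which is 7.27, 8.45 and 9.72 CPM in siNC and 9.64, 9.29 and 10.9 CPM in siTRIM28. The groups overlapped, since siNC replicate 3 lay above siTRIM28 replicates 1 and 2. The log2 fold change was 0.23 (SE 0.12, 95% interval −0.04 to 0.50, edgeR adjusted p = 0.157), and it ranged from 0.12 without siNC replicate 1 (adjusted p = 0.503) to 0.34 without siNC replicate 3 (adjusted p = 0.0682).

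IKBKG (ENSG00000269335, chromosome X from 154541199 to 154565033, + strand) encodes NEMO, which binds linear and lysine-linked ubiquitin chains and is needed for canonical kinase activity. Its level was 51.0, 52.8 and 47.7 CPM in siNC and 74.3, 58.9 and 60.7 CPM in siTRIM28. All siTRIM28 libraries were higher than all siNC libraries, and siTRIM28 replicate 1 was the highest by far. IKBKG rose by 28.0% (log2 fold change 0.36, SE 0.09, edgeR adjusted p = 0.00549), and by 0.24 on the log2 scale without siTRIM28 replicate 1, which still passed (adjusted p = 0.0028).

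Reads of IKBKG can be shared with a copy of its sequence. The pseudogene IKBKGP1 is a near-identical copy of part of IKBKG and was at 15.0 ± 1.19 CPM in siNC and 13.1 ± 1.43 CPM in siTRIM28 (edgeR adjusted p = 0.126). The summed counts of gene and pseudogene gave a log2 fold change of 0.25 (adjusted p = 0.0146), an alternative chosen after the data were seen.

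The members were also ordered by level per gene length (RPKM, computed from the deposited counts and the deposited gene lengths). In siNC the order from high to low was RELA (20.9 ± 0.35), NFKB2 (14.6 ± 0.80), BIRC3 (11.5 ± 0.18), NFKBIA (10.7 ± 0.55), IKBKG (9.31 ± 0.47), RELB (6.67 ± 0.13), NFKBIE (2.37 ± 0.10), NFKB1 (1.95 ± 0.05), TNFAIP3 (1.32 ± 0.19) and REL (0.61 ± 0.07). No neighbours in that order overlapped across the 3 libraries. In siTRIM28 BIRC3 came first (22.8 ± 0.45), followed by NFKB2 (21.3 ± 1.13) and RELA (18.9 ± 2.69), of which the last pair overlapped, as did NFKB1 (1.56 ± 0.13) and TNFAIP3 (1.54 ± 0.13). The lengths join all annotated exons, 15679 bases for NFKB1 and 17129 for REL, so that the RPKM of these genes is lowered by exons that few transcripts may use.

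**Figure D3:**
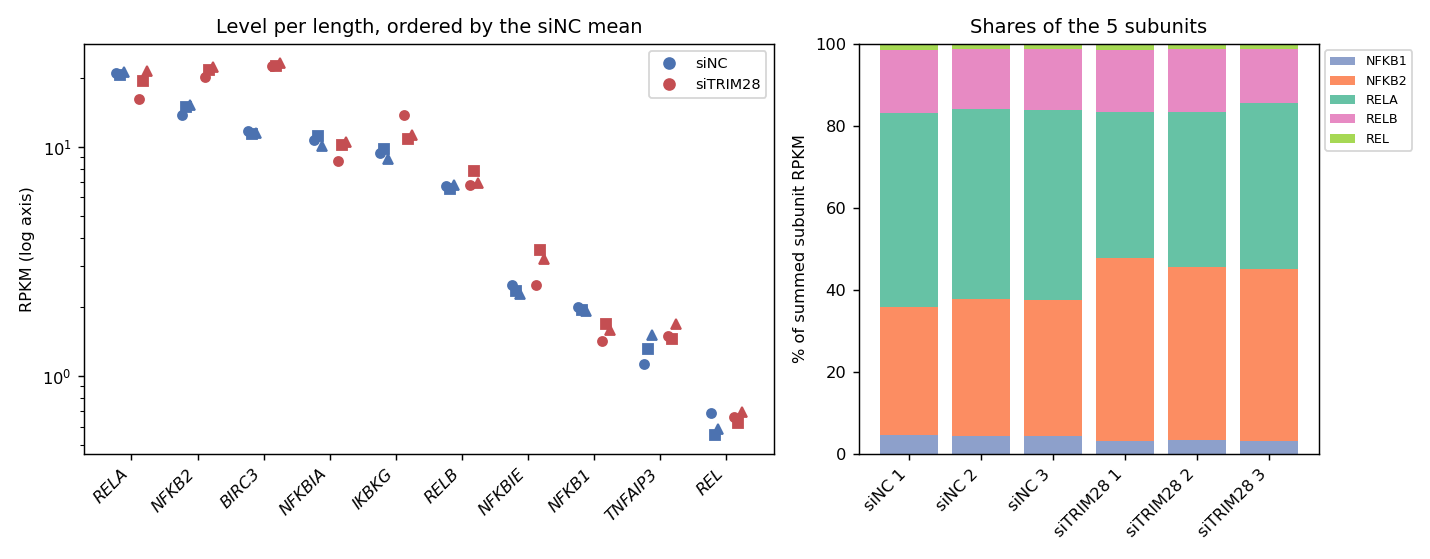
Left, level per length (RPKM, log axis) of the 10 genes in the 3 siNC (blue) and 3 siTRIM28 (red) libraries, ordered by the siNC mean, with marker shapes for replicates as in the plot of CPM; right, the share of each subunit in the summed RPKM of the 5 subunits, 1 bar per library from 0 to 100%. NFKB2 grows from a mean of 32.6% to 43.0% of the sum while RELA shrinks from 46.8% to 38.0%.

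The shares of the 5 subunit genes in their summed level differed between the groups, given here as a description with no test. NFKB2 made up 31.1%, 33.4% and 33.3% of the summed subunit RPKM in siNC and 44.6%, 42.2% and 42.1% in siTRIM28. RELA made up 47.6%, 46.3% and 46.5% in siNC and 35.7%, 37.9% and 40.4% in siTRIM28. RELA was therefore the largest share in every siNC library and NFKB2 in every siTRIM28 library. The share of NFKB1 went from 4.36 ± 0.19% to 3.15 ± 0.16% without overlap, while those of RELB (14.9% and 14.6%) and REL (1.36% and 1.33%) overlapped. The sum itself, 44.7 ± 0.91 RPKM in siNC and 49.6 ± 4.11 RPKM in siTRIM28, overlapped between the groups. The shares sum to a fixed total, so a rise of NFKB2 alone lowers the others, and RELA by itself did not pass the test.

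The kinases and adaptors around the members changed in both directions. Of 10 kinase and kinase-partner genes, 2 were called higher and 2 lower (40.0% of those tested, beside 41.8% of all genes), with a median log2 fold change of 0.00. CHUK, the IkB kinase alpha of both branches, fell from 27.9 ± 1.86 to 18.1 ± 1.59 CPM (log2 fold change −0.62, SE 0.08, edgeR adjusted p = 8.54e-05), and MAP3K7, the TAK1 kinase upstream of it, fell from 61.9 to 43.3 CPM (−0.52 on the log2 scale, adjusted p = 8.19e-05). TBK1 was slightly higher (0.24, adjusted p = 0.0259). IKBKB, the beta kinase, had a log2 fold change of −0.14 (95% interval −0.28 to −0.0008) and did not pass (adjusted p = 0.0989). MAP3K14, the kinase of the noncanonical branch, was at 21.9 ± 1.48 and 21.5 ± 0.69 CPM (adjusted p = 0.821, named after its value was seen). The number of called kinases was 2 in place of 4 when siNC replicate 1, siTRIM28 replicate 2 or siTRIM28 replicate 3 was left out, or when the replicates closest to each other were summed.

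Of 23 adaptor and ubiquitin genes, 9 were called higher and 6 lower (65.2% of those tested, beside 41.8% of all genes), with a median log2 fold change of 0.10. RIPK1, the scaffold kinase of the TNF receptor complex and a substrate of the BIRC3 ligase, fell from 35.3 ± 1.17 to 19.7 ± 0.60 CPM. The libraries were at 34.7, 36.6 and 34.5 CPM in siNC and 19.8, 19.0 and 20.2 CPM in siTRIM28, with no overlap (log2 fold change −0.84, SE 0.06, edgeR adjusted p = 1.19e-06). TRAF3, which brings MAP3K14 to the BIRC2 and BIRC3 ligases, fell from 76.0 ± 2.24 to 55.7 ± 1.05 CPM (−0.45 on the log2 scale, adjusted p = 3.37e-05). TRAF1 fell by 0.67 (adjusted p = 0.0022) and TRAF5 rose by 0.44 (adjusted p = 0.0143), whereas TRAF2, which bridges TRAF3 to the ligases and was named after its value was seen, had a log2 fold change of 0.05 (adjusted p = 0.597). The 3 genes of the linear ubiquitin ligase did not move together. SHARPIN fell by 0.41 (adjusted p = 0.000291), RNF31, its catalytic subunit, fell by 0.35 (adjusted p = 0.00255), and RBCK1 rose by 0.31 (adjusted p = 0.00535). RNF31 and RBCK1 were named after their values were seen. MAF1 overlaps SHARPIN by 3192 bases on the opposite strand and was also called lower, from 70.5 to 57.5 CPM (−0.29, adjusted p = 0.0192), and the part of its reads in the SHARPIN value was not tested.

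Of 15 receptor genes, 10 were tested, 6 of these were called higher and 1 lower (70.0% in all, beside 41.8% of all genes), and the median log2 fold change was 0.34. The difference of these shares, as for the other lists, was not tested. TNFRSF12A, the receptor of TWEAK, rose from 12.5 ± 1.41 to 19.4 ± 1.05 CPM (log2 fold change 0.64, edgeR adjusted p = 0.000136), and TNFRSF11A, the receptor RANK, from 20.9 ± 1.23 to 30.2 ± 1.41 CPM (0.53, adjusted p = 9.82e-05). CD40 rose by 0.42 (adjusted p = 0.00121), TNFRSF10B, a TRAIL receptor, by 0.39 (adjusted p = 0.000398), and TNFRSF1A, the main TNF receptor, by 0.22 (adjusted p = 0.0199). IL1RAP, the accessory chain of the IL-1 receptor, fell from 10.2 ± 0.31 to 5.96 ± 0.65 CPM (−0.79, adjusted p = 0.000214). The sixth receptor called higher, TNFRSF1B, had 4, 1 and 2 counts in siNC and 12, 13 and 16 in siTRIM28 and was named after its values were seen.

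Other inhibitors were split. Of 7 genes, 2 were called higher and 2 lower (57.1%, beside 41.8% of all genes), with a median log2 fold change of 0.11. BCL3, a nuclear IkB protein that works with p50 and p52 dimers, rose from 10.1 ± 1.56 to 14.1 ± 0.85 CPM (log2 fold change 0.49, edgeR adjusted p = 0.00388), and an overlapping RNA on the opposite strand went from 5.96 to 11.7 CPM. COMMD1, which promotes removal of RELA from chromatin, fell from 17.2 ± 1.92 to 10.1 ± 0.75 CPM (−0.76, adjusted p = 8.25e-05). NKIRAS1, which slows IkB degradation, fell by 0.42 (adjusted p = 0.00142) and overlaps RPL15 on the opposite strand, which at 332.2 CPM in siNC was far more abundant. RPL15 was also called lower (−0.22, adjusted p = 0.0008765), while NR1D2, which overlaps on that strand too, was called higher (0.21, adjusted p = 0.043). The part of their reads in the NKIRAS1 value was not tested.

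Classical target genes outside the members also went both ways. Of 35 genes, 23 were tested, 8 of these were called higher and 4 lower (52.2%, beside 41.8% of all genes), with a median log2 fold change of 0.23. CXCL8, the neutrophil chemokine IL-8, had 37, 53 and 52 counts in siNC and 219, 228 and 219 in siTRIM28 (3.52 ± 0.75 and 17.8 ± 1.91 CPM, log2 fold change 2.33, SE 0.14, edgeR adjusted p = 2.41e-07). CCL2, the monocyte chemokine, fell from 16.4 ± 1.54 to 7.77 ± 0.95 CPM (log2 fold change −1.07, SE 0.11, adjusted p = 1.19e-05). These 2 chemokines changed in opposite directions, and neither overlapped between the groups.

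SOD2, the mitochondrial superoxide dismutase, fell from 87.0 to 45.5 CPM (log2 fold change −0.93, edgeR adjusted p = 7.85e-07). GADD45B, a stress adaptor, rose by 0.80 (adjusted p = 0.000828), LIF, a cytokine of the IL-6 family, by 0.76 (adjusted p = 1.64e-05), and IER3, an early response gene, by 0.74 (adjusted p = 2.95e-06). SOD2, LIF and IER3 each overlap genes on the opposite strand, those of them that were tested were called in the same direction, and the part of their reads was not tested.

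**Figure D4:**
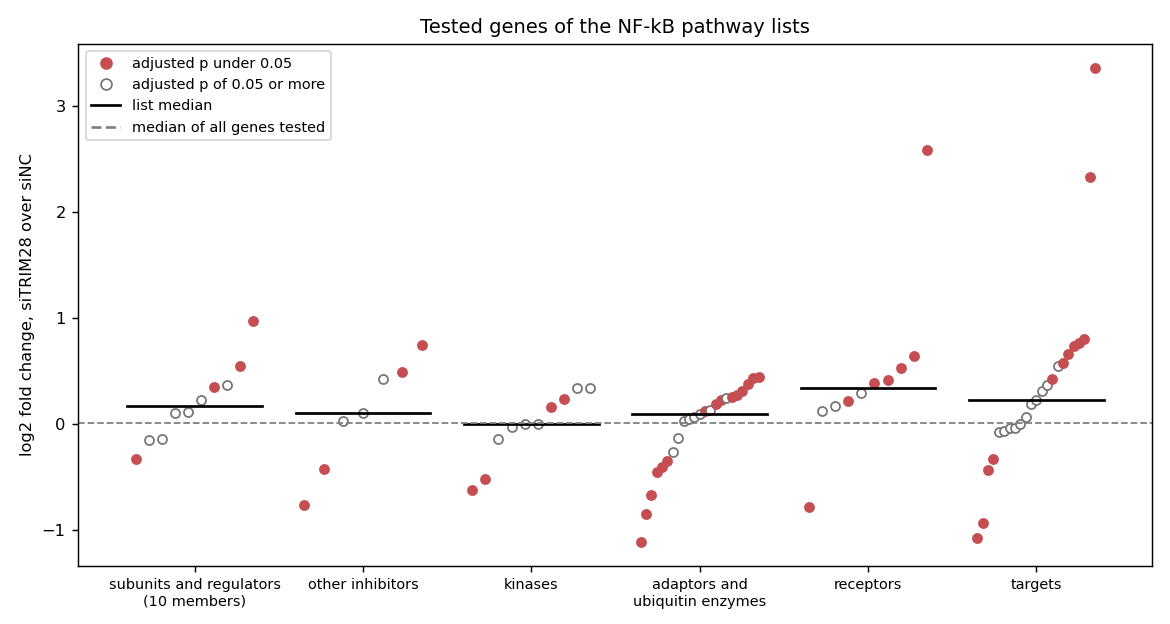
Log2 fold change (y axis) of each tested gene of the 10 members and of the 5 pathway lists, sorted within a list, in filled red where the edgeR adjusted p is under 0.05 and open otherwise; solid lines are list medians and the dashed line the median of all 18474 genes tested (0.02). Every list holds called genes on both sides of 0, and 1 receptor and 2 targets lie above 2.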

How the data were processed

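Raw read counts were deposited by the authors for each gene, together with gene lengths and GRCh38 coordinates. The submitters' processing notes name fastp 0.23.1, STAR 2.7.6a and featureCounts. The annotation release, the strand setting and the handling of duplicates are not given in the sources used here. A further deposited table, RPKM of genes the authors picked as differentially expressed, was not used. No sample column was left unused.

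A gene was tested where 3 or more of the 6 libraries had 10 or more counts. Counts were scaled by TMM and tested by the quasi-likelihood F test of edgeR 4.0.16 (R 4.3.3) with group as the single term, and p-values were adjusted over all tested genes by Benjamini-Hochberg at 0.05. The cut of 0.58 on the log2 scale is the one the study used for its cohorts. The SE is the absolute log2 fold change over the square root of F. CPM and RPKM are TMM-normalized. Log2 ratios used a prior count of 2 and exact two-sided permutation over 5 pairs. The common biological coefficient of variation was 0.0733. The fit was first tested on simulated data in which changed genes had a log2 change of 0.8 in size. It missed most of those with a mean under 50 counts and recovered nearly all others. Smaller changes, such as those of every member but BIRC3, were not simulated. The rule for passing that test was loosened after its first run, from recovery over all changed genes to recovery of those above that count. Alternatives were DESeq2 1.42.0, limma-voom (limma 3.58.1), scaling by RLE, by upper quartile or by total counts, other filters and thresholds, the replicate number as a block, other prior counts or units for ratios, libraries left out in turn, and closest replicates summed. Figures and tables used Python 3.11.15, pandas 2.3.3, numpy 2.4.6 and matplotlib 3.10.9.

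The members and lists were chosen with earlier results of these data known, as was the summing of close replicates. Named genes were TRIM28, the 10 members, BIRC2, NFKBIB, CHUK and IKBKB, and in each pathway list up to 6 genes with the largest absolute log2 fold change among those past the threshold whose mean reached 50 counts and whose groups did not overlap. Same-numbered libraries did not deviate together (r = 0.05, −0.01 and 0.04 over tested genes), so the numbers were not treated as pairs. Some results on overlapping genes are not reported here.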

Additional observations from a re-analysis of the deposited data

How the results depend on the processing

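BIRC3, NFKB2, NFKB1 and IKBKG kept their direction and stayed past the threshold in every alternative run. NFKBIE passed with upper-quartile scaling (0.40, adjusted p = 0.0442), and RELA with no filter (−0.16). Without single libraries the log2 fold changes ranged from 0.95 to 0.99 for BIRC3, 0.50 to 0.59 for NFKB2, −0.38 to −0.26 for NFKB1, 0.24 to 0.42 for IKBKG, 0.26 to 0.51 for NFKBIE (past the threshold only without siTRIM28 replicate 1), −0.25 to −0.0381 for RELA (only without siTRIM28 replicate 3), −0.20 to −0.05 for NFKBIA, 0.05 to 0.15 for RELB, 0.04 to 0.21 for REL and 0.12 to 0.34 for TNFAIP3. The log2 ratio difference of NFKBIA to RELA ranged from −0.0337 to 0.0651 and turned sign without siNC replicate 3 (−0.0337) and without siTRIM28 replicate 1 (−0.0115). The cause was not tested.

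The 7723 genes called became 5878 with DESeq2, 5935 with close replicates summed, and 6367 to 8252 with a library left out, and the members called were 4 or 5 throughout. Called kinases fell from 4 to 2 with close replicates summed and ranged from 2 to 6 with a library left out. With the replicate number as a block 7910 genes were called, and no member changed its call. At these depths NFKBIE and TNFAIP3, with 75 to 135 counts per library, have the widest intervals of the members. How small a change could be detected in them was not tested.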

Other observations

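Several inducers and outputs of the pathway were hardly transcribed in either group. IFNB1 and PTGS2 had 0 counts in all 6 libraries, which allows up to 0.214 to 0.253 CPM per library for counting error alone. TNF, IL6, IL1B, CXCL10, TLR2, TLR3 and TLR4 were below the count filter, each with a mean of at most 1 count per library. CCL5, in contrast, had 3, 1 and 2 counts in siNC and 25, 19 and 17 in siTRIM28.

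Genes of proteins that work with A20 or with the MALT1 complex were measured at higher counts than TNFAIP3. TNIP1, an A20-binding inhibitor, went from 458.0 ± 4.38 to 522.4 ± 6.19 CPM (log2 fold change 0.19, edgeR adjusted p = 0.001), and TAX1BP1, an adaptor of A20, from 170.2 ± 4.36 to 199.7 ± 6.78 CPM (0.23, adjusted p = 0.00115). MALT1 rose by 0.28 (adjusted p = 0.0056) and its partner BCL10 by 0.38 (adjusted p = 0.0037). MYD88, the adaptor of Toll-like and IL-1 receptors, had 39, 52 and 44 counts in siNC and 22, 17 and 19 in siTRIM28 (−1.11, adjusted p = 0.00101). CYLD, another deubiquitinase of the pathway, was at 31.6 and 32.2 CPM (adjusted p = 0.798). These genes were named after their values were seen.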
